A study of Homo sapiens with 3 samples.

Results

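The genes described here encode the subunits of the human proteasome. They were chosen by name: every row of the deposited table whose symbol consists of PSMA, PSMB, PSMC, PSMD, PSME or PSMF followed by a number. The rule found 41 genes among the 16662 listed, and no expression value entered it. Total RNA was sequenced from H1975, an established human lung adenocarcinoma line, after transfection with siHHLA3-1, siHHLA3-3 or the control siNC. The siHHLA3-1 and siHHLA3-3 cells carried different small interfering RNAs (siRNAs) against HHLA3, and the siNC cells carried a control siRNA. In every group, transfection was done near 70% confluency and was followed by 6 h in serum-free medium and 24 h in medium with 10% serum. Each group was 1 library. The batch given among the sample characteristics also differs for each library, so the siRNA and the batch cannot be told apart. No difference below has a replicate check.

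The proteasome degrades proteins marked with ubiquitin. Its 20S core is a barrel of alpha and beta rings with the proteolytic sites inside, and the 19S particle at either end binds, unfolds and feeds in the substrate. Under interferon, cells replace the standard catalytic subunits PSMB5, PSMB6 and PSMB7 with PSMB8, PSMB9 and PSMB10, which form the immunoproteasome, and make more of the activator pair PSME1 and PSME2. The products of the immunoproteasome are a major source of the peptides shown on MHC class I. In the text these 5 genes are called interferon-inducible, and the other 36 constitutive.

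The libraries held 35069930 reads for siHHLA3-1, 26950852 for siHHLA3-3 and 32813003 for siNC, of which 197690, 154793 and 199387 fell in the 41 genes. HHLA3 itself was at 1.55, 0.735 and 5.99 CPM (read counts scaled to the library total and a TMM factor, the trimmed mean of M-values), from 55, 20 and 192 reads. Epithelial marker genes, 6 of 6 listed, summed to 4935, 4129 and 5255 CPM. Of the other markers examined, 2 of 6 leukocyte genes summed to 12.7, 10.9 and 13.3 CPM, 1 of 5 fibroblast genes was at 24.5, 10.9 and 11.3 CPM, and 2 of 4 endothelial genes summed to 22.0, 5.00 and 9.66 CPM. PTPRC, which marks leukocytes, and PECAM1, which marks endothelium, are not among the rows of the table. The part of the minor markers in the proteasome values was not tested. In bulk RNA, fewer cells expressing a gene and less RNA per cell cannot be told apart.

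With siHHLA3-1 the proteasome genes moved apart by class. All 5 interferon-inducible genes were higher than in siNC, with a median log2 ratio of 0.39, and 34 of the 36 constitutive genes were lower, with a median of -0.20. With siHHLA3-3, 3 of the 5 inducible genes were above siNC and the median was 0.02, whereas 30 of the 36 constitutive genes were lower, with a median of -0.14. The differences were small: no member reached 2-fold in either comparison, and the constitutive genes ranged between -0.40 and 0.31 with siHHLA3-1 and between -0.60 and 0.12 with siHHLA3-3. These ratios are log2 of (CPM + 1) over (CPM + 1) of these scaled CPM, taken over the 13879 genes that averaged 1 CPM or more. All 41 members passed that filter. With the deposited TPM in place of scaled CPM, the siHHLA3-3 median was -0.07 for the constitutive genes, with 25 of 36 lower, and 0.09 for the inducible genes. The median of all genes in that comparison moved the same way, to 0.05, with 42.5% below 0.

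**Figure D1:**
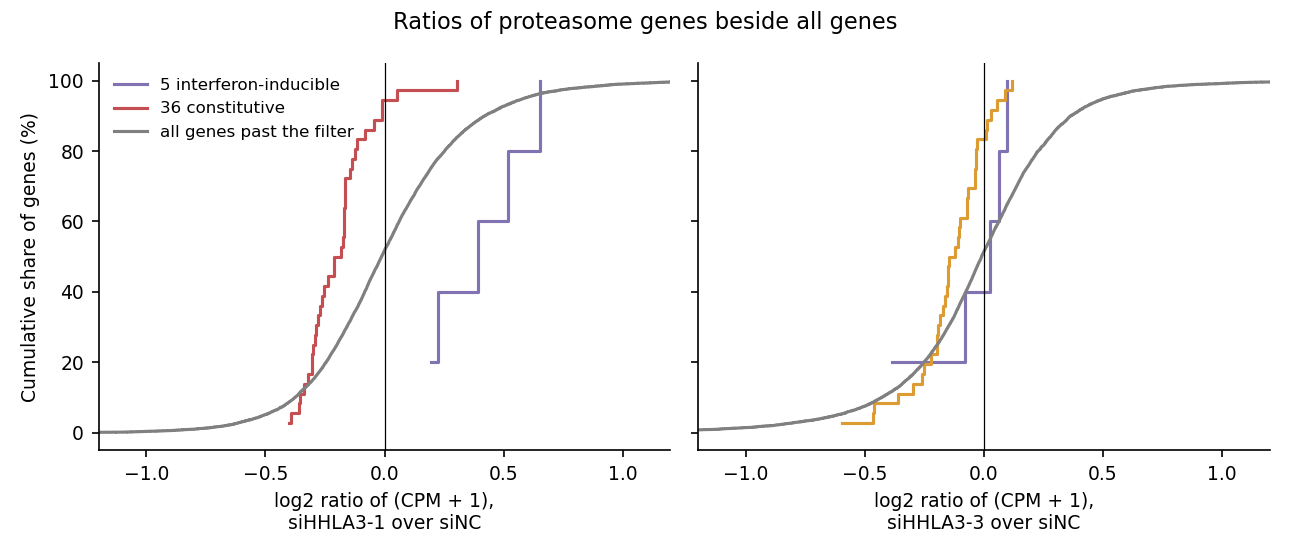
Cumulative share of genes, in percent, against the log2 ratio of (CPM + 1) for siHHLA3-1 over siNC (left) and siHHLA3-3 over siNC (right), for the interferon-inducible genes, the constitutive proteasome genes and all 13879 genes past the filter. With siHHLA3-1 the constitutive curve lies left of all genes (median -0.20 against -0.01) and the inducible curve lies right of it (median 0.39).

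The members read differently against all genes depending on the measure. Among all 13879 genes, 51.8% had a ratio below 0 with siHHLA3-1 and 51.5% with siHHLA3-3, and the median was -0.01 in both comparisons. Among the members, 34 of 41 and 32 of 41 were below 0, and the medians were -0.17 and -0.11. Over the whole table, 0.973% of genes passed 2-fold upward and 0.382% downward with siHHLA3-1, and 0.807% and 1.48% with siHHLA3-3. At those shares, 0 members past 2-fold is close to what the whole table shows. At 1.5-fold, 1 member was higher with siHHLA3-1 (background 5.03% higher and 3.34% lower) and 1 was lower with siHHLA3-3 (background 3.65% higher and 5.57% lower). Both comparisons share the siNC library.

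A count of genes whose exact 95% binomial interval for the ratio excluded 1 was also made; these intervals cover counting error only. With siHHLA3-1, 31 members lay below 1 (background 32.6%) and 6 above it (background 28.7%). With siHHLA3-3, 25 members lay below 1 (background 30.6%) and 4 above it (background 27.6%). In both siHHLA3 libraries 22 members lay below 1 (background 16.5%) and only PSMB8 lay above it (background 13.2%). Abundant genes have narrow intervals, so 1315 genes of like abundance, between 95.5 and 175 CPM on average, were examined too. That range runs from the lower to the upper quartile of the members and holds 21 of the 41. Of the 1315 genes, 47.5% lay below 1 with siHHLA3-1 and 42.5% with siHHLA3-3, and their median log2 ratios were -0.05 and -0.02. With both siHHLA3 libraries set together against siNC, edgeR's quasi-likelihood test found 0 members at an adjusted p under 0.05 and 0 at an unadjusted p under 0.05 (all genes, 0.00721% and 349 genes). DESeq2 likewise found 0 and 0 (all genes, 0.036% and 231 genes). Only 1 residual degree of freedom is left in that fit, which assumes that the lone siNC library varies like the others.

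The catalytic pairs set the classes side by side. With siHHLA3-1 the immunoproteasome to standard ratio was above that of siNC in every pair. With siHHLA3-3 it was above in the PSMB8 and PSMB9 pairs and below in the PSMB10 pair. PSMB8, the immunoproteasome form of the chymotrypsin-like subunit, was at 134, 109 and 102 CPM in siHHLA3-1, siHHLA3-3 and siNC cells. The ratio to siNC was 1.32 (95% interval 1.26 to 1.38) with siHHLA3-1 and 1.07 (1.02 to 1.13) with siHHLA3-3. Its standard counterpart PSMB5 had the opposite order, with 141 CPM in siHHLA3-1, 157 in siHHLA3-3 and 175 in siNC cells. PSMB5 was 1.24-fold lower (1.19 to 1.28) with siHHLA3-1 and 1.11-fold lower (1.07 to 1.16) with siHHLA3-3. The PSMB8 to PSMB5 count ratio was therefore 1.63 times that of siNC (1.53 to 1.72) in siHHLA3-1 cells and 1.19 times (1.12 to 1.27) in siHHLA3-3 cells. This ratio is taken within a library, so the scaling between libraries does not enter it. In the annotation used here, PSMB8-AS1 and PSMB9 both overlap PSMB8 on the opposite strand. PSMB8-AS1 held 304, 165 and 140 counts and PSMB9 held 3981, 2018 and 2273, against 4761, 2970 and 3269 for PSMB8. Whether the counting used strand is not stated, so the split of reads between PSMB8 and PSMB9 is uncertain. The part of this overlap in the ratios of PSMB8 and PSMB9 was not tested.

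PSMB9, which takes the place of the caspase-like subunit PSMB6, was at 112 CPM in siHHLA3-1 cells, 74.1 in siHHLA3-3 cells and 70.9 in siNC cells. It was the only member past 1.5-fold higher against siNC, at 1.58-fold (1.5 to 1.67) with siHHLA3-1, and the interval with siHHLA3-3 spanned 1 (1.05, 0.985 to 1.11). Its counterpart PSMB6 was at 93.7 and 95.1 CPM in the siHHLA3-1 and siHHLA3-3 libraries and at 106 CPM in siNC. The PSMB9 to PSMB6 count ratio was 1.78 times (1.66 to 1.91) and 1.16 times (1.07 to 1.26) that of siNC.

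PSMB10, the inducible trypsin-like subunit, had the fewest reads of the trio, with 961, 381 and 596 counts, or 27.1, 13.99 and 18.6 CPM. It was 1.46-fold higher (1.31 to 1.62) with siHHLA3-1 and 1.33-fold lower (1.17 to 1.51) with siHHLA3-3, so the siHHLA3 libraries lay on either side of siNC. Its counterpart PSMB7 was at 228, 245 and 235 CPM, with ratios to siNC of 0.968 (0.938 to 0.999) and 1.04 (1.01 to 1.07). The first of these crosses 1 when libraries are scaled by their totals alone. The PSMB10 to PSMB7 count ratio was 1.5 times (1.35 to 1.68) that of siNC with siHHLA3-1 and 0.725 times (0.633 to 0.829) with siHHLA3-3. In the annotation used here, 58.3% of the coding bases of PSMB10 are shared with AC040162.1 on the same strand, which held 154, 71 and 105 counts, so the split of reads between these genes is uncertain.

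**Figure D2:**
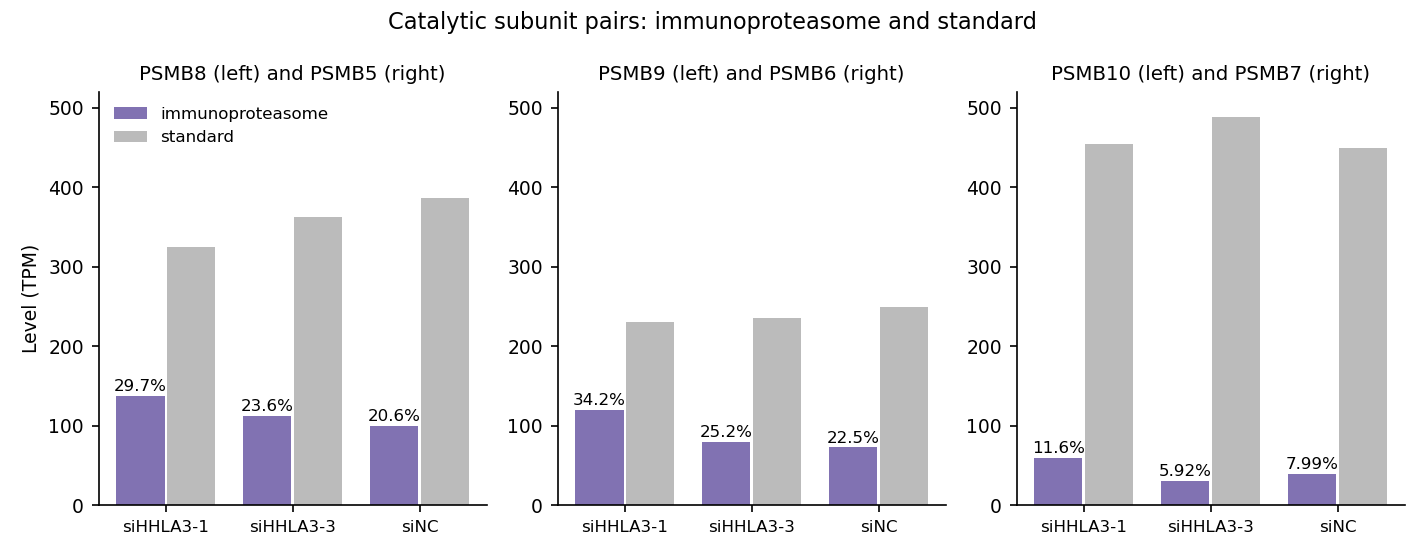
Level in TPM (transcript abundance per length) of each immunoproteasome subunit and its standard counterpart, with siHHLA3-1, siHHLA3-3 and siNC from left to right in each panel and 1 library per bar. The immunoproteasome bar of every pair is highest in siHHLA3-1 cells, and the PSMB10 bar in siHHLA3-3 cells is below that in siNC cells.

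Levels of different genes are compared in TPM, the authors' values per length. The immunoproteasome member made up 29.7%, 23.6% and 20.6% of the PSMB8 and PSMB5 total in siHHLA3-1, siHHLA3-3 and siNC cells. It made up 34.2%, 25.2% and 22.5% of the PSMB9 and PSMB6 total, and 11.6%, 5.92% and 7.99% of the PSMB10 and PSMB7 total. Over the 3 pairs the immunoproteasome share was 23.8% with siHHLA3-1, 17.0% with siHHLA3-3 and 16.3% with siNC. By TPM, the standard subunit was thus the larger part of each pair in all 3 libraries. By reads, PSMB9 exceeded PSMB6 in siHHLA3-1 cells, with 3981 against 3326 counts, and was below it in the other libraries. The order of that pair in siHHLA3-1 cells thus depends on the lengths behind the TPM.

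PSME1 and PSME2, which form the PA28 alpha-beta cap that opens the core, followed the immunoproteasome genes with siHHLA3-1 by a smaller amount. PSME1 was at 190 CPM in siHHLA3-1 cells, 169 in siHHLA3-3 cells and 166 in siNC cells, a ratio of 1.15 (1.11 to 1.19) with siHHLA3-1 and of 1.02 (0.978 to 1.06) with siHHLA3-3. PSME2 was at 185, 149 and 158 CPM, with ratios of 1.17 (1.13 to 1.21) and 0.946 (0.907 to 0.986). Beside them, PSME3, the nuclear PA28 gamma, was at 241, 243 and 263 CPM, and PSME4, the PA200 cap, was at 241, 241 and 270.1 CPM. Both lay below siNC in both siHHLA3 libraries, as most of the other constitutive genes did.

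The promoters of the 5 inducible genes and of PSMB5 are shown. PSMB6 and PSMB7, the other standard catalytic genes, had no promoter in the source used. The windows run from 250 bases before to 50 after the start of the transcript in the RefSeq table for GRCh38.p14, on the strand of the gene. Capitals mark matches on either strand to the interferon-stimulated response element (ISRE, GAAANNGAAA), the gamma-activated site (GAS, TTCNNNGAA) or the antioxidant response element (ARE, TGACNNNGC), and no matches overlapped. PSMB8 (ENSG00000204264) lies at chr6:32843998-32844297 on the minus strand, PSMB9 (ENSG00000240065) at chr6:32853942-32854241 on the plus strand and PSMB10 (ENSG00000205220) at chr16:67936801-67937100 on the minus strand. PSME1 (ENSG00000092010) lies at chr14:24135944-24136243 on the plus strand, PSME2 (ENSG00000100911) at chr14:24146561-24146860 on the minus strand and PSMB5 at chr14:23034851-23035150 on the minus strand.
PSMB8: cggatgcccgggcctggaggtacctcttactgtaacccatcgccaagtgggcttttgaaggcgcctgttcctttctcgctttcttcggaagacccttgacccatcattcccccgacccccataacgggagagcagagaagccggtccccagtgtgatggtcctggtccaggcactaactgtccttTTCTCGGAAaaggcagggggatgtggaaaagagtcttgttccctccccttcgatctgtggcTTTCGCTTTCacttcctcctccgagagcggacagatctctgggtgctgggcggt
PSMB9: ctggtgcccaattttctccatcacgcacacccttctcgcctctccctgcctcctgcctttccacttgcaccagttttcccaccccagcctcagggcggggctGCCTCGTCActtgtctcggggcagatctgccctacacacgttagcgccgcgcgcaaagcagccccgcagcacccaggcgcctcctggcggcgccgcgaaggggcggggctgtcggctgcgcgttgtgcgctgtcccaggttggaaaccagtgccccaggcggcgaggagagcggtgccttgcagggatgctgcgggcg
PSMB10: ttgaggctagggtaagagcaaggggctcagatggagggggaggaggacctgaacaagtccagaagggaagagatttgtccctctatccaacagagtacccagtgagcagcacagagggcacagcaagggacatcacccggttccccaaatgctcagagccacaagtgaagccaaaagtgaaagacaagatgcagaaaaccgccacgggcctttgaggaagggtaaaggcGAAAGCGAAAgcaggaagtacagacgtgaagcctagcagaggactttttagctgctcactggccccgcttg
PSME1: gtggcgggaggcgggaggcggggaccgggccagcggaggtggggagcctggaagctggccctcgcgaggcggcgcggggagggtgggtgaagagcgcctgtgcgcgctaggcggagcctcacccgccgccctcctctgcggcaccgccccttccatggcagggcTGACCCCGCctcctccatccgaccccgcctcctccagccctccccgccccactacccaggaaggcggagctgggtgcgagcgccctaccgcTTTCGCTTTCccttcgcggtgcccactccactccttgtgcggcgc
PSME2: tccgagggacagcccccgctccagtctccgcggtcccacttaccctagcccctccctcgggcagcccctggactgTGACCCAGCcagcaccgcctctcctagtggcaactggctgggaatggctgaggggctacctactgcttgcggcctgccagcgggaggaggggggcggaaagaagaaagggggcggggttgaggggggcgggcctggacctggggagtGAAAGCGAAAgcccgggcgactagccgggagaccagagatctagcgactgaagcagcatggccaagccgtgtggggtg
PSMB5: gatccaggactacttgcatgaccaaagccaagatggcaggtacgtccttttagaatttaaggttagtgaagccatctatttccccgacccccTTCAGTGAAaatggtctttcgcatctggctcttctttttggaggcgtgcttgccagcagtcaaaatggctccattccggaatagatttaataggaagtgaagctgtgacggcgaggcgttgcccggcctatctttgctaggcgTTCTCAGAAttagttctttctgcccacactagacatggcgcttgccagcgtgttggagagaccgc

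In the PSMB8 window the ISRE match begins 4 bases upstream of the start and the GAS match 65 bases upstream. The ISRE match begins 21 bases upstream in PSMB10 and 28 bases upstream in PSME2, and 5 bases after the start in PSME1. The PSMB9 window held no ISRE or GAS match and 1 ARE match, which begins 148 bases upstream. PSMB5 held GAS matches 158 and 15 bases upstream, and no ISRE match. Of the 41 members, 36 had a promoter in the table. An ISRE match was found in 4 of the 5 inducible genes and in 2 of the 31 constitutive genes with a promoter, PSMA4 and PSMB4, against 4.38% of 27305 genes. A GAS match was found in 1 of 5 inducible and 6 of 31 constitutive genes, against 9.38% of all genes, and an ARE match in 3 of 5 and 9 of 31, against 16.1%. A match describes the letters in the window only, and some genes have more than 1 window. PSMB8 (chr6:32844630-32844929) and PSMB5 (chr14:23035171-23035470) each have a further window, not shown, with no ISRE, GAS or ARE match.

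PSMD1, PSMC2 and PSMD5 were the PSMC and PSMD genes furthest below siNC on average over both siRNAs. PSMD1, a large scaffold subunit of the base, was at 204.5 CPM in siHHLA3-1 cells, 196 in siHHLA3-3 cells and 270.3 in siNC cells. It was 1.32-fold lower (1.28 to 1.36) and 1.38-fold lower (1.33 to 1.43). PSMD5, a chaperone that assists assembly of the base, was at 68.7 and 60.5 CPM against 84.0 CPM in siNC, 1.22-fold and 1.39-fold lower. PSMC2, an ATPase of the base, was at 175 CPM in siHHLA3-1, 131 in siHHLA3-3 and 198 in siNC cells. It was the only member past 1.5-fold lower against siNC, at 1.51-fold (1.45 to 1.58) with siHHLA3-3. With siHHLA3-1 the fold was 1.14, also lower.

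The 19 genes of the 19S particle were lower with siHHLA3-1; they are counted here with PSMD5 and PSMD10, which help to assemble the base and are not part of the mature particle. All 19 had intervals below 1 with siHHLA3-1, against 32.6% of all genes and 47.5% of the genes between 95.5 and 175 CPM. The median log2 ratio was -0.27. With siHHLA3-3 12 of the 19 had intervals below 1, against 30.6% and 42.5%, and the median was -0.10. The 19 include genes outside that range of CPM, such as PSMD2 above it and PSMD10 below it. The 6 ATPases, which unfold the substrate, had medians of -0.25 and -0.13. PSMC1, an ATPase of this group, shares 47.7% of its coding bases with NRDE2 on the opposite strand, so its reads are uncertain. The 13 other genes had medians of -0.27 and -0.07. PSMD2, the most abundant of the non-ATPase genes per length, was at 269, 317 and 312 TPM in siHHLA3-1, siHHLA3-3 and siNC cells. PSMD13, a subunit of the lid, was 1.32-fold lower with siHHLA3-1, with 94.6 CPM, and 1.07-fold lower with siHHLA3-3, with 116 CPM, against 125 CPM in siNC. PSMD8, also of the lid, lay above siNC with siHHLA3-3, at 106 and 122 CPM in the siHHLA3-1 and siHHLA3-3 libraries against 113 CPM.

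**Figure D3:**
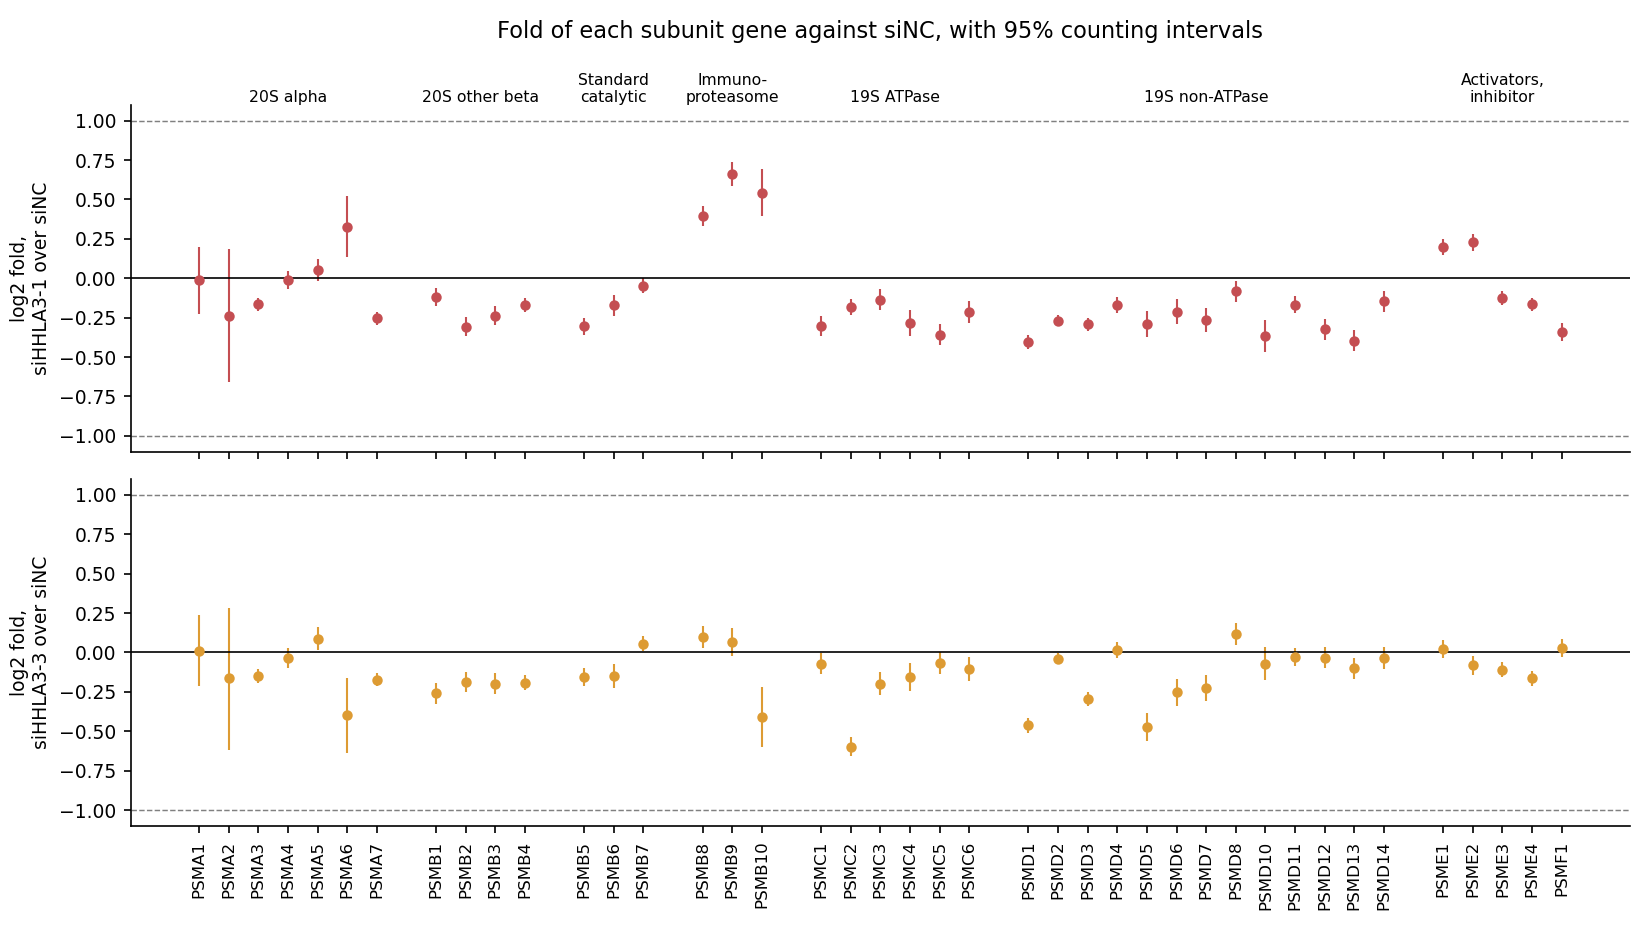
Log2 fold of each of the 41 genes against siNC, in siHHLA3-1 cells (upper) and siHHLA3-3 cells (lower), grouped by role, with exact 95% binomial intervals that cover counting error only; dashed lines mark 2-fold. All 19 genes of the 19S particle lie below 0 with siHHLA3-1, and PSMC2 is the lowest of the 19S genes with siHHLA3-3.

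In the core particle, the 4 beta subunits without a catalytic site, PSMB1 to PSMB4, had intervals below 1 in both siHHLA3 libraries (background 16.5%). Of the genes between 95.5 and 175 CPM, 47.5% lay below 1 with siHHLA3-1 and 42.5% with siHHLA3-3. PSMB4 was above that range. The median log2 ratio of the 4 genes was -0.20 for siHHLA3-1 and -0.19 for siHHLA3-3. Among the 7 alpha ring genes, which form the gate of the core, 2 lay below 1 with siHHLA3-1 and 3 with siHHLA3-3, shares near the 32.6% and 30.6% of all genes, and their medians were -0.01 and -0.12. PSMA7, the most abundant member per length, was at 583, 619.7 and 668 TPM, and PSMA3 had ratios of 0.892 and 0.902 to siNC. PSMA5 was above siNC with both siRNAs, at 102 and 104 CPM against 98.2 CPM, and the interval with siHHLA3-1 spanned 1.

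PSMA1, PSMA2 and PSMA6 had far fewer reads than the rest of the alpha ring, although the ring holds its subunits in equal number. PSMA2 had 93, 75 and 99 counts and was the lowest member per length, at 1.11, 1.18 and 1.26 TPM. PSMA6 had 524, 243 and 377 counts and 8.08, 4.90 and 6.18 TPM. PSMA1 had 387, 302 and 353 counts and 12.7, 13 and 12.3 TPM. In GENCODE 29, 97.1% of the coding bases of PSMA2, 88.6% of those of PSMA1 and 70.4% of those of PSMA6 are shared with another gene on the same strand, and none of those genes is among the rows of the table. The processed copy PSMA6P1 had 198, 138 and 182 counts, fewer than PSMA6 in each library. Per length it was at 26.8, 24.5 and 26.2 TPM, above PSMA6. The counts of these 3 genes are therefore uncertain, and the part of shared bases in them was not tested. PSMA6 was the constitutive gene furthest above siNC with siHHLA3-1, at 1.26-fold (1.10 to 1.44). Without members that share over 50% of their coding bases, 32 of 33 constitutive genes were below 0 with siHHLA3-1 and 28 of 33 with siHHLA3-3.

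**Figure D4:**
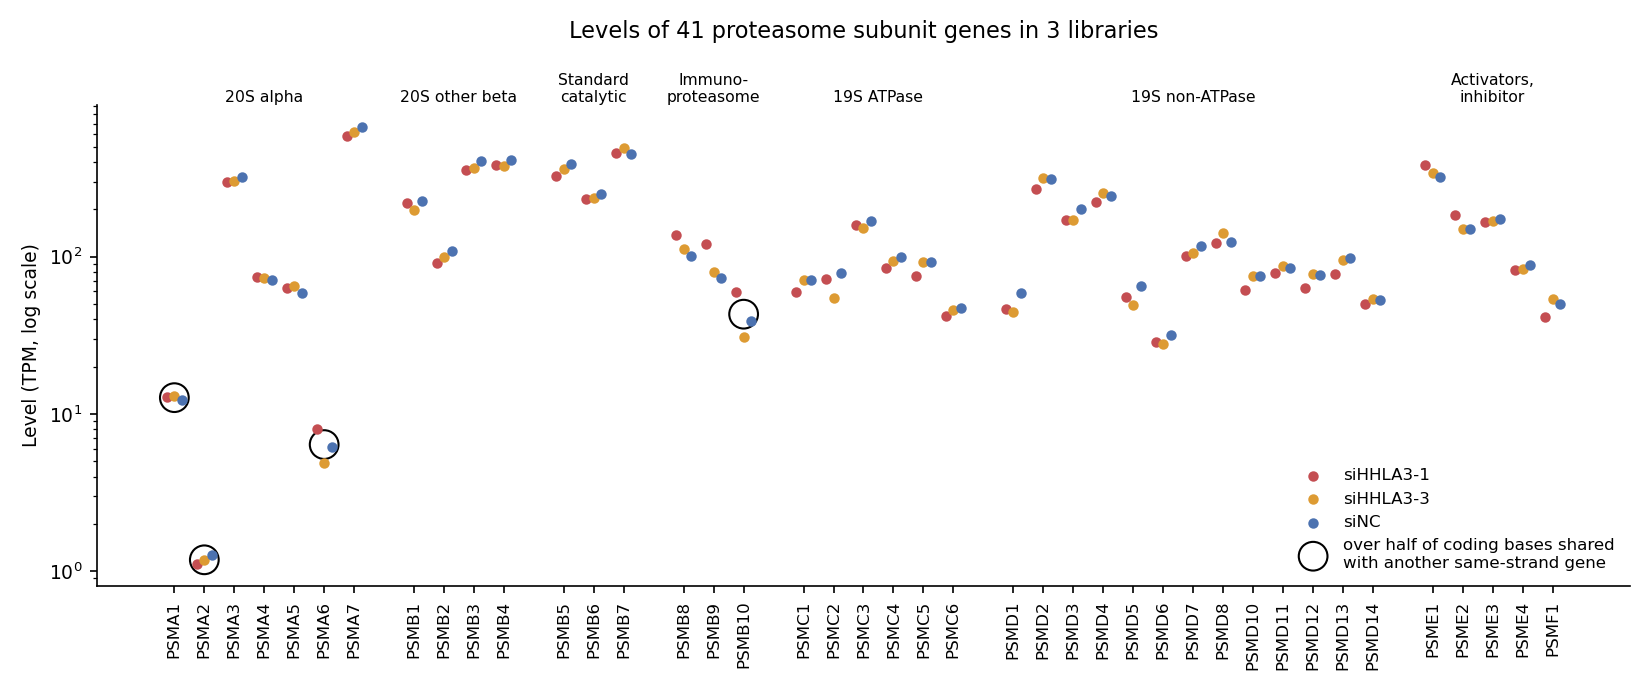
Level in TPM on a log axis of each of the 41 genes in the siHHLA3-1, siHHLA3-3 and siNC libraries, grouped by role. PSMA7 is highest, at 583 to 668 TPM, and PSMA2 lowest, at 1.11 to 1.26 TPM.

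Summed per length, the 41 genes came to 6108, 6229 and 6463 TPM in siHHLA3-1, siHHLA3-3 and siNC cells. The immunoproteasome trio came to 316, 222 and 212 TPM and the 19S ATPases to 493, 509 and 556 TPM. The non-ATPase genes of the 19S particle came to 1348, 1499.7 and 1539 TPM. The trio was thus highest in siHHLA3-1 cells and both 19S groups lowest there. PSMF1, the inhibitor PI31, was at 119.8 CPM in siHHLA3-1 cells, 155 in siHHLA3-3 cells and 152 in siNC cells. It was 1.27-fold lower (1.21 to 1.32) with siHHLA3-1, and the interval with siHHLA3-3 spanned 1.

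The direct comparison of siHHLA3-3 with siHHLA3-1 does not use the siNC library. All 5 inducible genes were lower in siHHLA3-3 cells, with a median log2 ratio of -0.31 and all 5 intervals below 1. Over all members, 10 intervals lay below 1 (background 31.1%) and 17 above it (background 31.6%), and 15 ratios were below 0 (background 49.6%). PSMB10 was 1.93-fold lower (1.72 to 2.18) and PSMB9 1.51-fold lower (1.43 to 1.6) in siHHLA3-3 cells. They and PSMA6, 1.65-fold lower, were the 3 members past 1.5-fold lower (background 7.82%), with 0 past 1.5-fold higher (background 4.4%). No member reached 2-fold, against 0.757% of all genes higher and 2.12% lower. The 36 constitutive genes had a median of 0.05, and 12 of the 19 genes of the 19S particle had intervals above 1. PSMF1 was 1.29-fold higher in siHHLA3-3 cells.

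Of the listed interferon regulators of the immunoproteasome, 9 of 9 were above 0 with siHHLA3-1, with a median log2 ratio of 0.42. With siHHLA3-3 7 of 9 were above 0 (median 0.19). Among all 13879 genes, 6693 were above 0 with siHHLA3-1 and 6738 with siHHLA3-3. The list was chosen with earlier results of these data known, so its counts are a description only. STAT2, which carries the type I interferon signal to the nucleus, was at 354, 268 and 168 CPM in siHHLA3-1, siHHLA3-3 and siNC cells and was the only one of the list past 2-fold. IRF1, which binds the promoters of immunoproteasome genes, was at 96.5, 59.7 and 56.9 CPM. NLRC5, the transactivator of MHC class I, was at 325, 202 and 168 CPM. IRF1 and PSMB9 shared their order over the libraries, with siHHLA3-1 well above the other two; 3 libraries allow no more than that description.

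Genes of peptide loading and MHC class I had a median log2 ratio of 0.41 with siHHLA3-1 and 0.17 with siHHLA3-3. In each, 11 of 14 were above 0, against 6693 and 6738 of all 13879 genes. This list, too, was chosen with earlier results of these data known. TAP1, the peptide transporter encoded next to PSMB9, was at 255 CPM in siHHLA3-1 cells, 266 in siHHLA3-3 cells and 177 in siNC cells. TAP1 was therefore 0.53 and 0.59 above siNC on the log2 scale, where PSMB9 was 0.65 and 0.06 above. HLA-F was 1.14 and 0.59 above siNC, HLA-E 0.61 and 0.23, and TAPBP, which edits peptides, 0.52 and 0.27.

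Genes that assist, regulate or feed the constitutive proteasome had medians from -0.34 to 0.08. The 6 assembly chaperones had a median of -0.09 for siHHLA3-1 and of 0.08 for siHHLA3-3, with PSMG3 at -0.43 and -0.04 and PSMG1 at -0.44 and 0.12. This was the only such list with a median above 0, with siHHLA3-3. The 7 other proteins of the 26S particle had medians of -0.34 and -0.10, among them the deubiquitinase USP14 at -0.36 and -0.32 and the ubiquitin receptor ADRM1 at -0.30 and -0.10. Among the 8 regulators, with medians of -0.10 and -0.23, NFE2L1, the factor that raises proteasome genes when the proteasome is inhibited, was at 158, 201 and 163 CPM. DDI2, the protease that activates the NFE2L1 protein, was at 46.9, 30.7 and 49.1 CPM. NFE2L2, a related factor that acts under oxidative stress, was at 133, 119.9 and 152 CPM. The 6 ubiquitin and E1 genes had medians of -0.09 and -0.18, with the E1 enzyme UBA6 at -0.09 and -0.55. The 10 listed shuttle and extraction genes had medians of -0.14 and -0.10, with the shuttle factor RAD23B at -0.30 and -0.67.

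**Figure D5:**
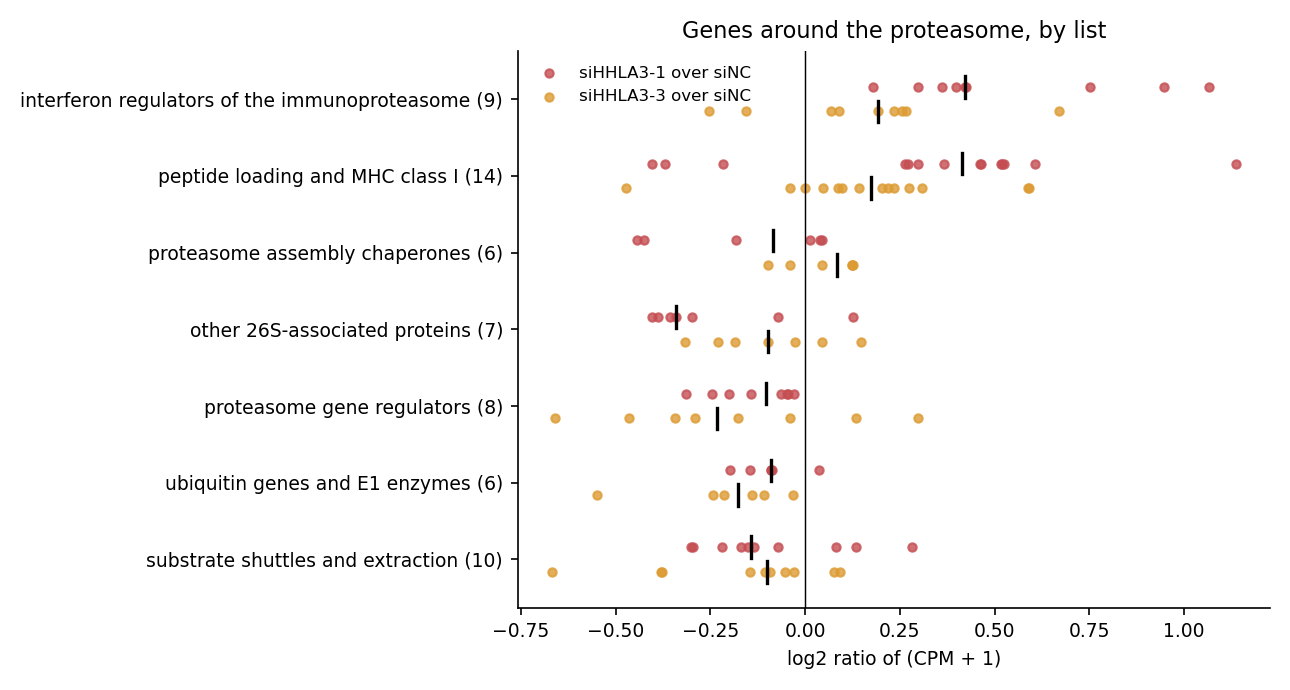
Log2 ratio of (CPM + 1) against siNC for each gene of the lists around the proteasome, with siHHLA3-1 and siHHLA3-3 shown apart and a black bar at each median. All 9 interferon regulators lie above 0 with siHHLA3-1, and all 8 proteasome gene regulators lie below 0 with siHHLA3-1. Among all 13879 genes, 6693 were above 0 and 7186 below 0 in that comparison. For 4 of the 8 proteasome gene regulators the counting interval spanned 1.

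An siRNA can also lower genes whose 3′ untranslated region matches its seed. The siRNA sequences were not used here, so a 7-base word was taken for each siRNA from these same ratios. It was the word, of 16383 searched, with the lowest mean ratio of carriers relative to its standard error, against genes without it. For siHHLA3-1 it was CAGAATG, present in 23.3% of 10498 genes searched and in 4 of 40 members, PSMA6, PSMA7, PSMB2 and PSMD8. The median log2 ratio with siHHLA3-1 was -0.17 in these 4 and -0.17 in the other members. Over all genes searched it was -0.09 in carriers and -0.02 in the others. For siHHLA3-3 it was GTGAACT, present in 15.97% of genes and in 1 member, PSMD1. The log2 ratio of PSMD1 was -0.46 with siHHLA3-3, and the median of the other members was -0.10. With siHHLA3-1, for which this word was not taken, PSMD1 was at -0.40 and the median of the other members was -0.17. Over all genes searched, the median with siHHLA3-3 was -0.17 in carriers and -0.0013 in the others. With siHHLA3-1 it was -0.04 in carriers and -0.04 in the others. The part of seed matches in the proteasome values was not tested.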

How the data were processed

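The authors deposited 1 table with counts, CPM, FPKM and TPM for each of 3 libraries. In it the deposited counts are raw whole reads of each gene. The deposited CPM scale these to the library total, and the deposited FPKM and TPM also divide by length. Per the submitters' processing notes, hg19, HISAT2, HISAT, TopHat2 and Bowtie2 are named, without versions. The counting program, the annotation and any use of strand are not given in the sources used here. Whether reads of overlapping genes on opposite strands were told apart is therefore unknown. Gene overlaps come from GENCODE 29 on GRCh38 and promoters from RefSeq on GRCh38.p14, which differ from the build of the notes.

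Library totals were recovered from the authors' counts and CPM, and counts were rescaled to CPM by TMM (edgeR 4.0.16, R 4.3.3). The added 1 CPM in the log2 ratios makes those of low genes too small. Folds are plain CPM ratios with exact 95% binomial intervals, and pair ratios are conditional odds ratios with exact intervals. Single comparisons have no p-value, since each side is 1 library. DESeq2 1.42.0 and edgeR were also fitted to 2 libraries against 1 as an alternative. Other work used Python 3.11.15, scipy 1.17.1 and pandas 2.3.3. The scripts were tested on simulated data. A count of 3 corresponds to 0.0845, 0.110 and 0.0935 CPM in siHHLA3-1, siHHLA3-3 and siNC.

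The members and lists were chosen with earlier results of these data known. Any member could be named; of each list, up to 4 genes by size of the mean ratio, some regulators and HHLA3 could be, and 1 gene that this rule names is not reported here. The genes of like abundance, the 7-base words and the shared coding bases were examined after the data were seen, and PTPRC and PECAM1 were named from the marker lists.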

Additional observations from a re-analysis of the deposited data

How the results depend on the processing

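Medians kept their direction under DESeq2 size factors, library totals alone, the deposited TPM and FPKM, an added 0.1 in place of 1, no filter and a filter of 5 CPM. The median of the constitutive genes ran from -0.21 to -0.14 with siHHLA3-1 and from -0.15 to -0.07 with siHHLA3-3, and that of all 41 genes from -0.11 to -0.05 with siHHLA3-3. Under library totals alone the median of all genes moved to 0.03 in both comparisons, with 45.3% (siHHLA3-1) and 44.8% (siHHLA3-3) of genes below 0. There, 31 of the 36 constitutive genes were below 0 with siHHLA3-1 and 25 with siHHLA3-3, and PSMA1, PSMA4 and PSMB7 (siHHLA3-1) and PSMA4, PSMD2, PSMD11, PSMD12 and PSMD14 (siHHLA3-3) crossed 0. At 1.5-fold, 1 member was higher with siHHLA3-1, 1 was lower with siHHLA3-3 and 3 were lower in siHHLA3-3 than in siHHLA3-1 cells, against 0 at 2-fold in each. Without members that share over 50% of their coding bases, an alternative added after the data were seen, the inducible median with siHHLA3-1 was 0.31, against 0.39. By library totals alone 4 of 41 members were higher in both siHHLA3 libraries, against 1. The share of all genes higher in both by library totals is not given here. The inducible median with siHHLA3-3 was 0.02, against 0.07 by library totals and FPKM and 0.09 by TPM. With both siHHLA3 libraries against siNC, edgeR called 0 members higher and 0 lower, and DESeq2 0 and 0, against 1 and 22 by counting intervals; that fit has 1 residual degree of freedom. The cause of these shifts was not tested. Leaving out genes that carry either 7-base word, also added later, left 19 of 36 members lower in both. The carriers PSMA7, PSMB2 and PSMD1, all lower in both, were among those removed. For that smaller set the share of all genes is not given here. No paired analysis was possible because each group holds 1 library. Counting error is small for most members, and the absence of replicates sets the limit; PSMA1, PSMA2, PSMA6 and PSMB10 have the fewest reads and the widest intervals.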
